A study of Mus musculus with 2 samples.

Results

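The receptor, kinase, transcription factor and target genes of the leukaemia inhibitory factor (LIF) pathway were described by their H3K4me1 peaks in mouse embryonic stem cells. The genes were chosen by name: Lifr and Il6st for the receptor, Jak1 for the kinase, Stat3 for the transcription factor, and Socs3, Pim1, Pim3 and Junb for the targets. These are 8 of 21887 protein-coding genes measured. H3K4me1, histone H3 with a single methyl group on lysine 4, marks enhancers and the flanking regions of promoters. The assay was ChIP-seq, the sequencing of DNA precipitated with an antibody to the mark, and the cells were E14TG2a.4, a male stem cell line of strain 129/Ola, labelled as embryonic at an age of 3.5 days. The 2 biological replicates of this line form the only group and share 1 donor, with no treatment, genotype change or other condition in their labels. The culture medium, and with it the supply of LIF, is not given in the sources used here. Neither STAT3 binding nor expression was measured, and the targets are so called from textbook knowledge.

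LIF is the cytokine that supports self-renewal of mouse embryonic stem cells in culture. It joins the LIF receptor (Lifr) to gp130 (Il6st), the signalling subunit shared by the interleukin-6 family, and the JAK kinases bound to these chains then phosphorylate docking sites for STAT3. STAT3 dimers enter the nucleus and bind palindromic DNA sites, and their targets include Socs3, whose product inhibits the receptor complex, the survival kinase genes Pim1 and Pim3, and the AP-1 factor gene Junb.

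Each gene was measured as a locus, the RefSeq gene record on mm10 with 50 kb added on each side. The locus coverage is the percent of its bases in the authors' peaks. Lists were deposited for each replicate, with 313453 peaks for replicate 1 and 325226 for replicate 2, and as a replicated list of 226060 peaks. The 8 loci held 455, 483 and 337 of these peaks. The lists hold no read counts and the depth is unknown, so the mean ± SD (n = 2) describes these libraries only. No test was run between the members, which are not replicates of a condition, and all that follows is description. The labelled cell type was checked against marker genes: all 7 stem cell markers lay above the all-gene median in both replicates, as did 48.6% of all genes, against 2 of 6 fibroblast, 0 of 3 endoderm and 1 of 2 neuron markers. Their median coverage was 30.9%, 7.03%, 5.92% and 16.8% in that order.

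The sequences below are chosen examples of the STAT palindrome at these loci. Its 2 forms searched on both strands were TTCNNNGAA and the stricter TTCCNGGAA, every match to which is also a match to the former. Both are palindromes, so each site counts once. In the 250 bases upstream of the RefSeq starts (GRCm38.p6, the build of the mm10 lists), Socs3 was the only member with a match to TTCNNNGAA and none held TTCCNGGAA. Of all 32851 RefSeq promoters, 7.02% held the former and 0.913% the latter. The Socs3 match began 154 bases upstream of the RefSeq start. It is given in capitals within the bases from 250 to 91 upstream, on the minus strand of chr11:117969457-117969616 (mm10):
Socs3 promoter: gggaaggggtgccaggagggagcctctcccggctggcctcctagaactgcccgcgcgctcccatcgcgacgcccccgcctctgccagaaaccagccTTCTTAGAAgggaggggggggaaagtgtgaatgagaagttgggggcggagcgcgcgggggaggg

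Genome sequence was read on mm9, the build of the authors' broad peak lists, after placing each RefSeq start by its exact promoter sequence. The match to TTCCNGGAA nearest the start was chosen for each locus, inside a peak where there was such a match, with 20 bases on each side (10 within 2 kb of a start). All are on the gene's strand, with the motif in capitals and the distance from the first RefSeq start. For Socs3, whose proximal promoter is known to hold STAT-binding elements, the match beside the start is given as well as the nearest in a peak. At Junb a nearer match, 2.17 kb downstream of the start and outside peaks, was passed over. Because matches in peaks were preferred, the list does not show how often the motif lies in peaks.
Lifr, 3.08 kb upstream, in a peak (mm9 chr15:7076466-7076514): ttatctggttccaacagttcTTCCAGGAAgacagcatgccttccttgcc
Il6st, 3.49 kb upstream, in a peak (mm9 chr13:113250764-113250812): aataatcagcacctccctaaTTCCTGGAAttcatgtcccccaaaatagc
Jak1, 7.13 kb downstream, intron, outside peaks (mm9 chr4:100930675-100930723): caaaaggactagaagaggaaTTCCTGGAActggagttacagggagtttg
Stat3, 4.64 kb downstream, intron, in a peak (mm9 chr11:100796187-100796235): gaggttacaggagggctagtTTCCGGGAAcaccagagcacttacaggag
Socs3, 0.123 kb downstream, outside peaks (mm9 chr11:117830543-117830571): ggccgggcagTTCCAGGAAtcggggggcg
Socs3, 6.74 kb downstream, in a peak (mm9 chr11:117823917-117823965): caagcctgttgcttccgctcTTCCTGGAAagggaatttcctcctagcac
Pim1, 8.95 kb downstream, in a peak (mm9 chr17:29636658-29636706): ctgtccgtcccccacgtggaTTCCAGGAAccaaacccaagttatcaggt
Pim3, 24.5 kb upstream, in a peak of replicate 1 only (mm9 chr15:88668127-88668175): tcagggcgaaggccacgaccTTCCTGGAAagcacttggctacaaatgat
Junb, 9.48 kb upstream, in a peak (mm9 chr8:87512101-87512149): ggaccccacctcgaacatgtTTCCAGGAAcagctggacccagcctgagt

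The 4 target loci had a larger share of their bases in H3K4me1 peaks than those of Lifr, Il6st and Jak1. Socs3 stood highest. By group medians, this contrast did not extend to the further pathway genes described below. Socs3 had 82.1% of its locus in peaks in replicate 1 and 80.4% in replicate 2, and Jak1 had 5.31% and 5.67%. The medians over the targets were 57.9% and 54.5%, and those over Lifr, Il6st and Jak1 were 20.0% and 27.2%. The difference was 38.0 percentage points in replicate 1 and 27.4 in replicate 2, a mean of 32.7 ± 7.49. The groups did not overlap in any replicate: the lowest target value was 47.6% (Pim3, replicate 1) and the highest receptor value 38.7% (Lifr, replicate 2). Across all genes the median was 12.6% in each replicate.

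**Figure D1:**
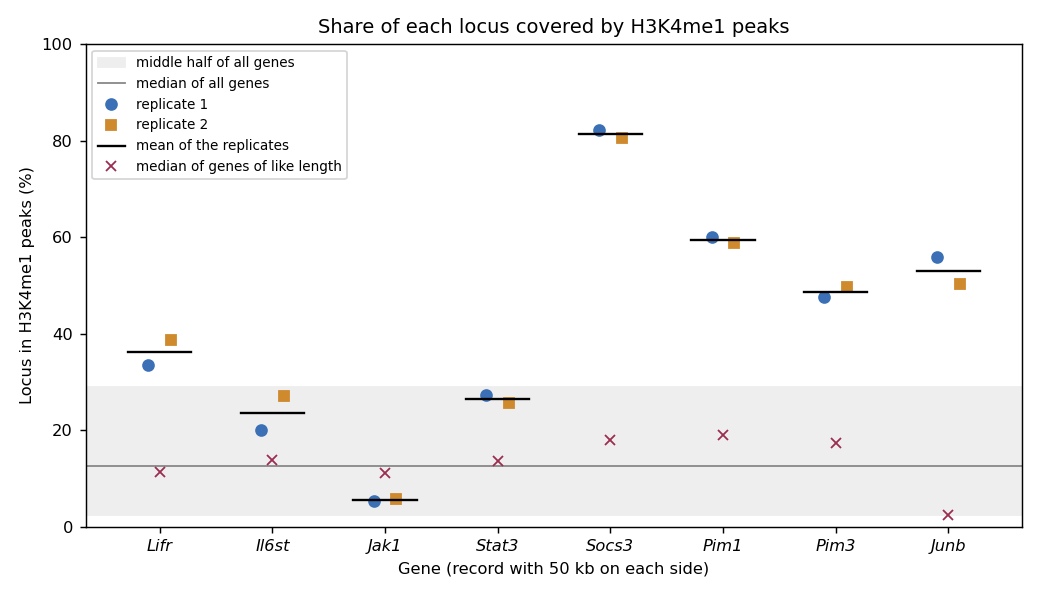
Percent of each locus in H3K4me1 peaks (vertical axis) for the 8 genes (horizontal axis), with circles for replicate 1, squares for replicate 2 and a bar for their mean. The grey band spans the middle quartiles of all genes (2.53% to 28.9%), the grey line is their median (12.6%) and crosses are medians of genes with records of like length. The 4 targets sit between 47.6% and 82.1%, above the receptors, the kinase and Stat3.

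Lifr, which encodes the LIF-binding chain, was the most covered of the upstream genes. Its locus on chromosome 15 (record 7090610-7197489, plus strand) had 33.6% in replicate 1 and 38.7% in replicate 2, a mean of 36.1% ± 3.62 at percentile 82.8 of all genes. Il6st, the gp130 gene on chromosome 13 (112464070-112506860, plus strand), had 20.0% and 27.2%, a mean of 23.6% ± 5.09 at percentile 68.0. Of the bases marked at Il6st in either replicate, 32.4% were marked in replicate 2 only, against 16.9% over all peaks. Jak1, the kinase gene on chromosome 4 (101151974-101265282, minus strand), had a mean of 5.49% ± 0.26 at percentile 33.7. It was the only member below the median of all genes, so 7 of 8 members lay above it in both replicates, where 48.6% of all genes did.

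Stat3, which encodes the transcription factor and is also known as a target of its own product, lay among the receptors. Its locus on chromosome 11 (100886806-100939594, minus strand) had 27.3% in replicate 1 and 25.7% in replicate 2, a mean of 26.5% ± 1.15 at percentile 72.1. The replicate ranges of Stat3 and Il6st overlapped, so their order is not resolved. No other pair of neighbours in the order of the 8 loci had overlapping ranges, although Junb's lower value (50.3%) was close to Pim3's higher value (49.8%). With n = 2, ranges that do not overlap do not show that an order is resolved.

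Among the targets, Socs3 on chromosome 11 (record 117966079-117970336, minus strand) had a mean of 81.3% ± 1.18 and ranked 6 of 21887 genes. The 5 genes ranked above it were Ahdc1, Cactin, Mfsd12, Tbxa2r and 4930404N11Rik, and none of their loci shares a base with that of Socs3. Pim1, a serine/threonine kinase gene on chromosome 17 (29490785-29496111, plus strand), had 60.0% and 58.8%, a mean of 59.4% ± 0.84 and rank 385. Junb, on chromosome 8 (84976909-84978748, minus strand), had 55.9% and 50.3%, a mean of 53.1% ± 3.95 at percentile 95.8. Pim3, on chromosome 15 (88862194-88865726, plus strand), had 47.6% and 49.8%, a mean of 48.7% ± 1.55 at percentile 93.4. All 4 targets therefore lay above 44.3%, the value that 90% of all genes do not exceed.

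The targets are short genes, and their loci are mostly flanking sequence. Their records span 1840 bp (Junb) to 5327 bp (Pim1), whereas those of Lifr, Il6st, Jak1 and Stat3 span 106880, 42791, 113309 and 52789 bp. Against genes with records within 2-fold of their own length, Socs3 was at percentile 99.93, Pim1 at 96.7, Junb at 96.3 and Pim3 at 89.1. The genes compared with Junb had a median coverage of 2.38%, against 17.3% to 19.1% for the other targets, so its percentile is not on the same footing. Among genes of their own like length, Lifr was at percentile 90.3, Stat3 at 75.9, Il6st at 69.8 and Jak1 at 29.8. On this scale Lifr lay above Pim3, so the groups overlapped. Other gene starts also fell in the target loci, 8 in that of Junb, 3 in that of Pim3 and 1 in that of Socs3, with none in the Pim1 locus. Stat3 had 3, and Lifr, Il6st and Jak1 had none, against a median of 2 over all genes. The part of gene length and of neighbouring genes in the difference was not tested.

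**Figure D2:**
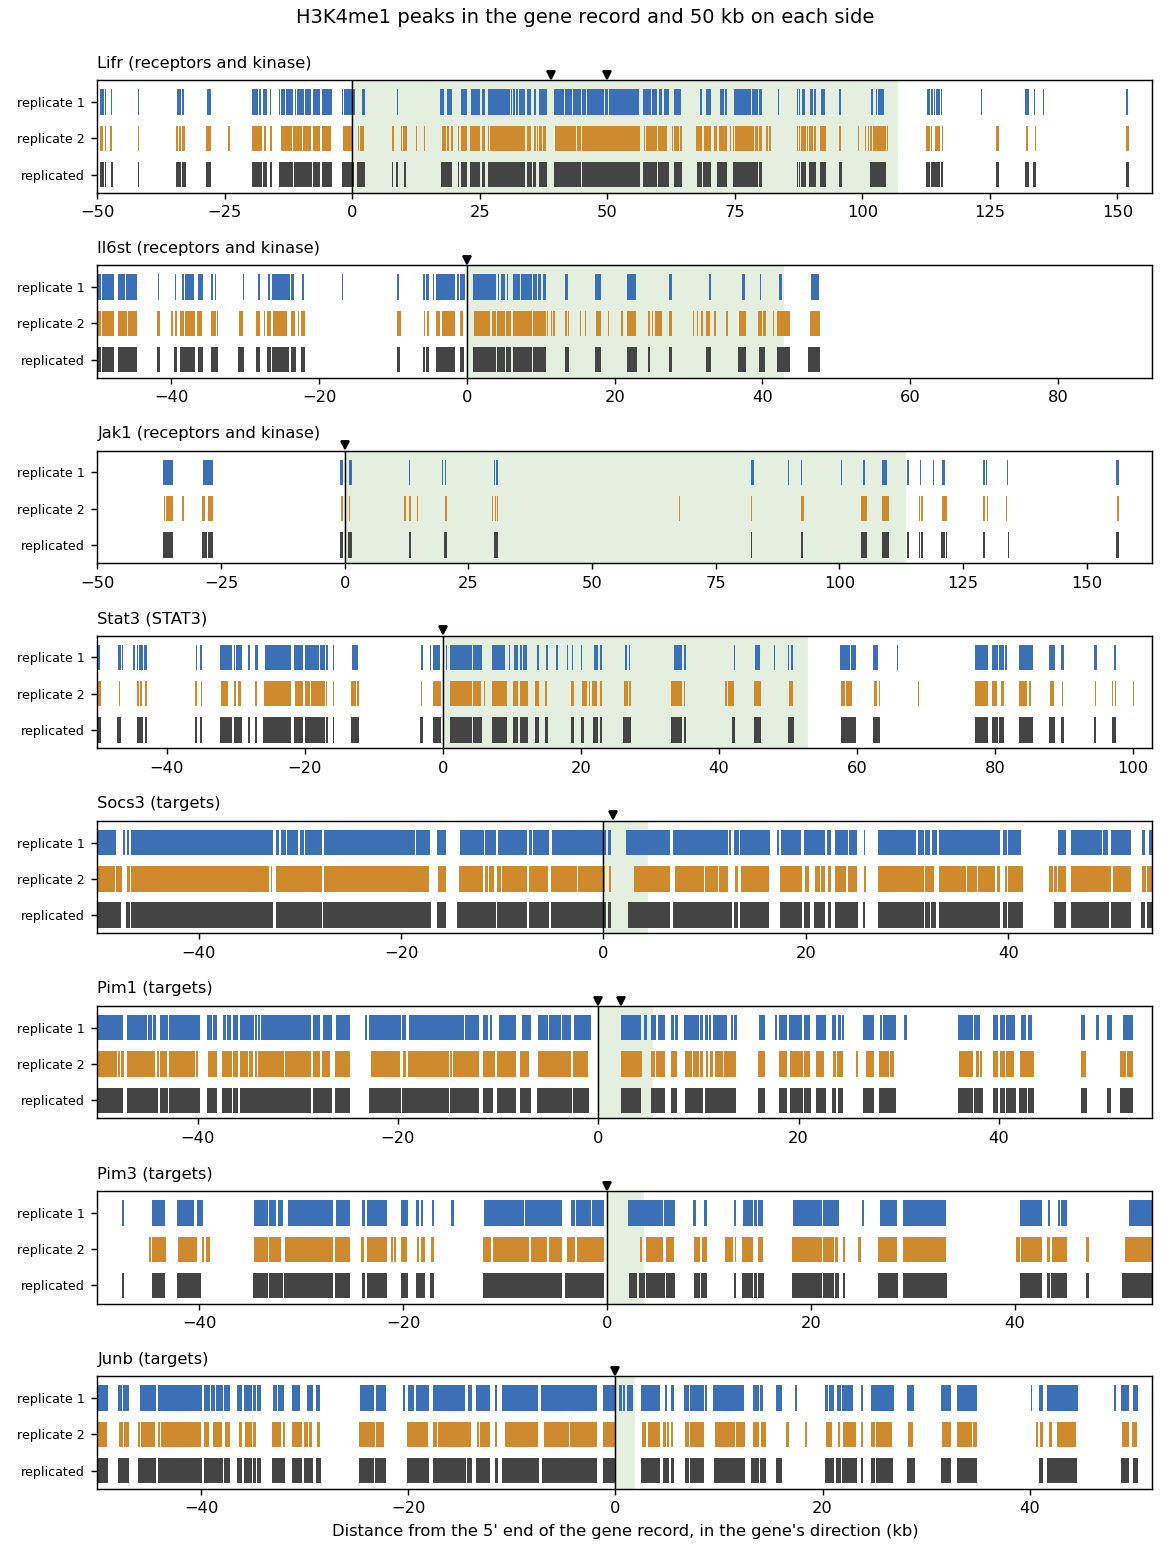
Peaks of replicate 1 (blue), replicate 2 (orange) and the replicated list (black) across each locus, by distance in kb from the 5' end of the gene record in the gene's direction. The gene record is shaded, triangles mark RefSeq starts, and scales differ between the panels. Peaks fill most of the Socs3 locus (81.3% on average) and little of the Jak1 locus (5.49%).

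The contrast lay in the flanks and not in the gene records. In the 50 kb upstream, the target median exceeded that of the receptors and kinase by 41.7 points in replicate 1 and 37.6 in replicate 2. In the 50 kb downstream the difference was 38.7 and 39.3 points. Both flanks thus gave differences of like size in both replicates. Over the records alone it was 21.5 points in replicate 1 and -22.5 in replicate 2, so the replicates went opposite ways. Within 20 kb of the record's 5' end it was 33.2 and 26.5 points.

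Every member carried more of the mark upstream than downstream, in both replicates, which held for 40.5% of all genes. Mean coverage was 33.5% upstream and 7.64% downstream at Lifr, and 33.5% and 3.47% at Il6st. The downstream flanks of both receptor genes and of Jak1 lay below the all-gene medians for that flank, 10.7% in replicate 1 and 10.4% in replicate 2. Stat3 had 31.2% and 18.7%, and Jak1 8.38% and 4.94%. Among the targets, Pim1 had 79.5% upstream and 41.2% downstream and Junb 66.1% and 41.0%, and their downstream values differed by less than the SD over replicates at either gene (1.44 and 4.17). Socs3 had 89.7% and 75.6%, and Pim3 53.3% and 45.8%.

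**Figure D3:**
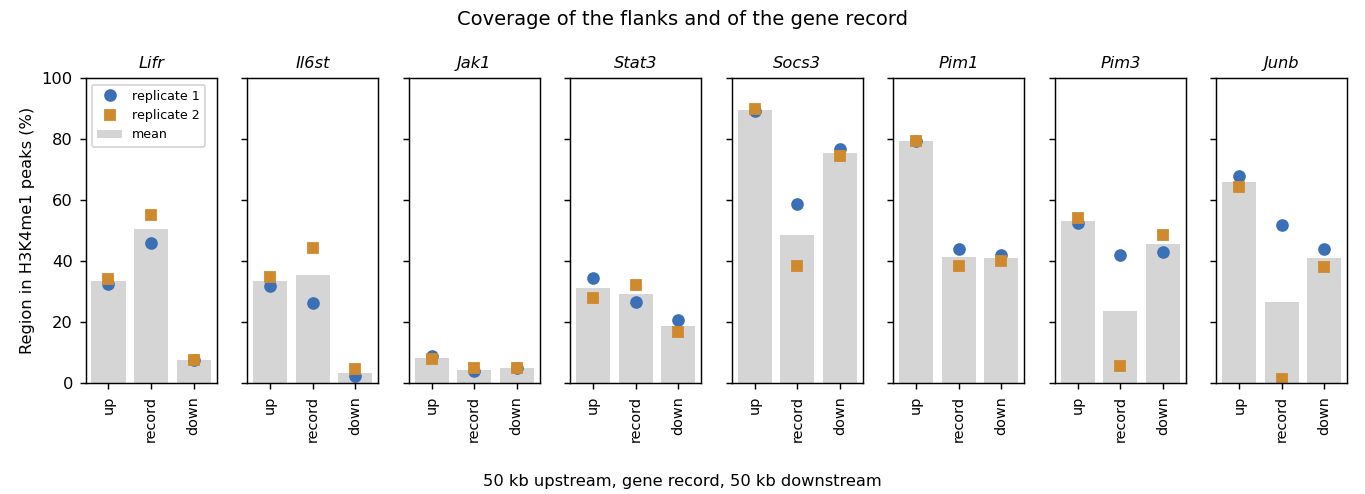
Percent in H3K4me1 peaks (vertical axis) of the 50 kb upstream, the gene record and the 50 kb downstream of each gene, with bars for the mean, circles for replicate 1 and squares for replicate 2. The upstream bar is higher than the downstream bar at all 8 genes, and the replicates part widely within the short records of Pim3 and Junb.

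Within the records, the receptor genes were covered over much more of their length than Jak1, and the short targets differed between replicates. The Lifr record had 46.1% in replicate 1 and 55.3% in replicate 2, the highest mean of the 8 records (50.7%), and Il6st had 26.4% and 44.5%. In Jak1, 3.95% and 4.97% of the record was in peaks, and Stat3 had 26.7% and 32.1%. By the broad peaks on mm9, where exons are annotated, 69.8% of the Lifr intron bases and 42.7% of its exon bases were in peaks of replicate 1, and 81.2% and 77.6% in replicate 2. In Stat3 the introns had 51.8% and 65.2%, and the exons 24.3% and 22.4%. Introns exceeded exons in both replicates at these genes, while Il6st had the opposite order, with 34.7% and 55.5% of introns and 61.7% and 85.8% of exons. The Il6st record on mm9 begins at 113265216, downstream of the RefSeq start placed at 113254278. Its split thus leaves out the 5' part of the gene and does not describe the whole of it. Socs3 (27.7% and 27.7% of introns, 78.5% and 64.7% of exons) and Pim3 (20.4% and 0% of introns, 54.6% and 14.5% of exons) also had exons above introns. The order differed between the replicates at Jak1 and at Pim1.

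The replicates differed most over the records of Junb and Pim3. Junb, an intronless gene, had 52.0% of its record in peaks in replicate 1 and 1.41% in replicate 2. Replicate 1 listed 4 peaks between 382 and 1729 bp into Junb, with signal values, the caller's own measure per peak, from 2.67 to 2.90. These lie at or below the 18.0th percentile of the replicate 1 list, and neither replicate 2 nor the replicated list has a peak there. The Pim3 record had 42.1% and 5.60%. At Pim3 the downstream peak began 2047 bp into the gene in replicate 1 and 3250 bp in replicate 2. Socs3 had 58.9% and 38.4%, and Pim1 44.0% and 38.6%, which leaves no order among the target records.

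All 8 members had a replicated peak within 2 kb of the 5' end of the record, a share to be read against 72.8% of all genes. Most starts themselves were bare, as were those of most genes. The 5' end of the record lay in a peak of replicate 1 at 2 of 8 members (19.1% of all genes) and of replicate 2 at 3 of 8 (15.0%). Those in a peak in both replicates were 2 of 8, Lifr and Socs3, where 13.4% of all genes were. Junb was the third in replicate 2, and in replicate 1 its peak ended 27 bp short of the start.

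In both exceptions the record begins upstream of the RefSeq start. The Lifr record begins 38962 bp upstream of its first RefSeq start, and that start lay in a gap between peaks of 1413 bp in replicate 1 and 1712 bp in replicate 2. The Socs3 RefSeq start is 970 bp inside its record, in a gap of 1547 and 2282 bp. At the other genes the gap was 1033 and 1523 bp for Il6st, 1236 and 1263 bp for Jak1, and 793 and 1296 bp for Stat3. The gaps were widest at Pim1 (2988 and 3273 bp) and Pim3 (2337 and 3548 bp). In both, most of the gap lay downstream of the start: the next peak began 2294 and 2284 bp into Pim1, and the upstream peak ended 695 and 990 bp before it. The second RefSeq starts of Lifr (49932 bp into the record) and Pim1 (2300 bp) lay inside peaks of both replicates. At Pim1 the second start was only just inside, because these peaks began 2294 and 2284 bp into the record. The bases between the first Pim1 start and that edge were outside peaks. The bases upstream of the second starts were 50.8% and 48.0% G or C, against 82.4% at the first start of each gene.

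**Figure D4:**
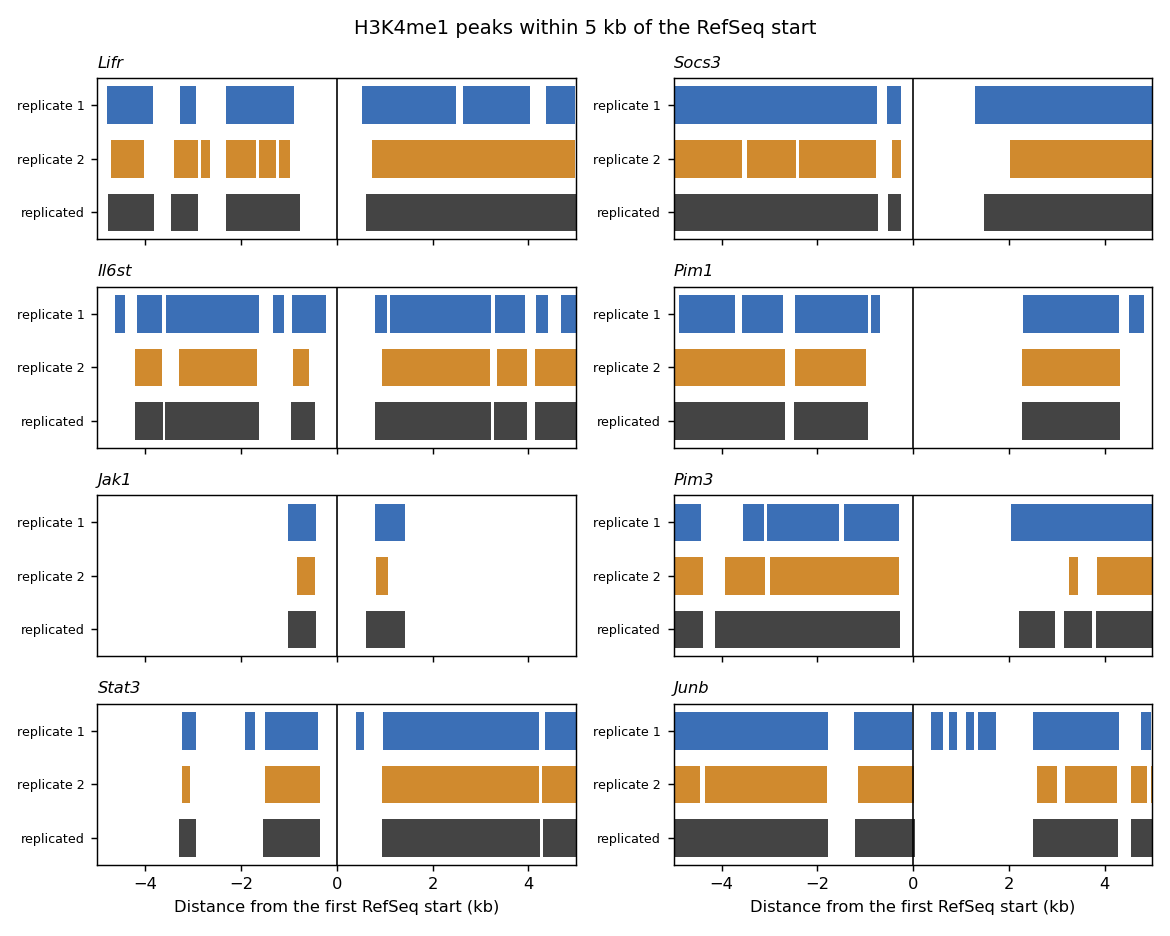
Peaks of replicate 1 (blue), replicate 2 (orange) and the replicated list (black) within 5 kb of the first RefSeq start of each gene, by distance in kb. A gap spans the start at 7 of the 8 genes in both replicates, and at Junb the upstream peak reaches the start in replicate 2.

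Strong peaks were concentrated in the target loci. Of the peaks of replicate 1, 10.4% reached the signal value at the 90th percentile of that list, and 10.0% of the peaks of replicate 2. At Socs3, 19 of 46 peaks (41.3%) in replicate 1 and 22 of 51 (43.1%) in replicate 2 did so. Pim3 had 38.1% and 29.8%, Junb 37.5% and 27.9%, and Pim1 21.4% and 31.2%. Each target was thus above its list in both replicates. Lifr, with 10.9% and 10.1%, was near the share of all peaks. Il6st had 7.84% and 6.06%, Stat3 4.69% and 7.46%, and Jak1 0 of 26 peaks and 1 of 28. The lowest target share was 21.4% and the highest of the other 4 genes 10.9%.

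**Figure D5:**
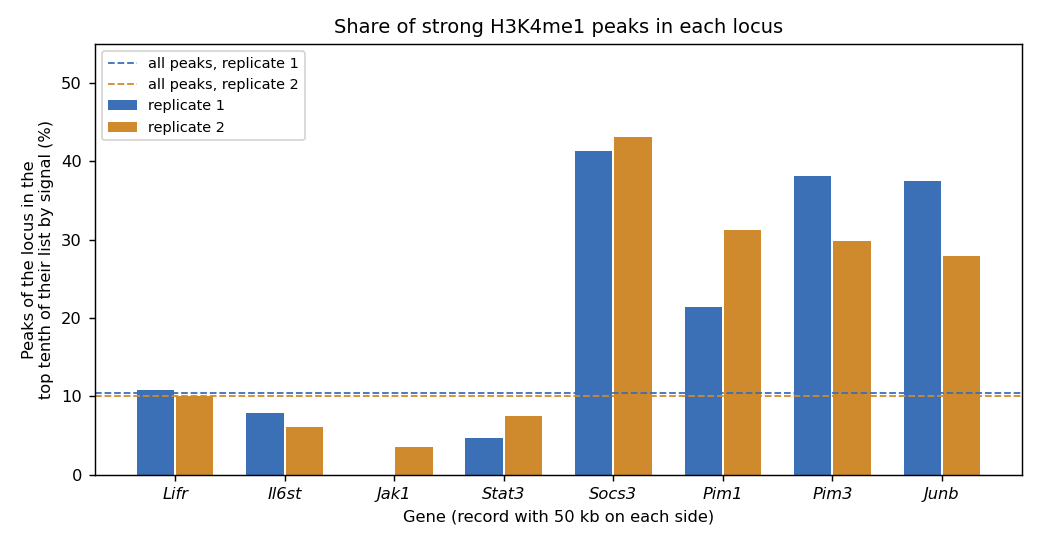
Percent of the peaks of each locus whose signal value is at or above the 90th percentile of their list, in replicate 1 (blue) and replicate 2 (orange), with dashed lines for all peaks (10.4% and 10.0%). Socs3, Pim1, Pim3 and Junb have bars of 21.4% to 43.1%, and no other bar exceeds 10.9%.

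The strongest replicated peak of each locus was in most cases not at the gene's own start, with no all-gene share to compare. In the Socs3 locus it was a 14062 bp peak with a signal of 16.4, at percentile 99.996 of the replicated list, whose summit lay 41.3 kb upstream within Pgs1, a neighbouring gene for a phospholipid synthesis enzyme. The signal at that place was 15.4 in replicate 1 and 16.1 in replicate 2. The strongest Pim1 peak (12.9) was 50.7 kb upstream in no gene record, and that of Pim3 (13.1) was 22.6 kb upstream, also in none. The Pim3 peak had 7.15 in replicate 1 and 11.5 in replicate 2, and in replicate 1 the peak 6.54 kb upstream within Gm33049 was stronger, with 14.1. Junb had its strongest peak (13.8) 2.62 kb upstream of its start, just beyond the promoter peak. The strongest peaks of the targets thus ranged from the promoter flank to the edge of the locus.

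Among the upstream genes, the strongest Stat3 peak (10.4) was 18.6 kb upstream in Cavin1, which encodes a coat protein of caveolae. That of Lifr (10.2) had its summit 43.7 kb into the record, downstream of the first RefSeq start, and that of Il6st (8.86) was 2.62 kb upstream. At the Il6st peak the replicates differed, with 5.96 in replicate 1 and 8.98 in replicate 2. The strongest Jak1 peak (6.71) was 109 kb into the gene, near its 3' end, at percentile 84.0 of the list. The Jak1 peak ranked second (5.68, percentile 73.7) lay 1.01 kb downstream of the start. Their order differed between the replicates: the peak near the 3' end had 4.68 in replicate 1 and 7.51 in replicate 2, and that near the start 6.01 and 4.59.

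Joining replicated peaks across gaps of up to 1 kb gave 110522 domains, and the Socs3 locus held the widest among the 8 genes. That domain was 44932 bp, rank 89, and ran from -60.5 to -15.5 kb relative to the 5' end of the record, partly beyond the locus, across Pgs1 and into Dnah17, an axonemal dynein gene. It was covered over 88.2% in replicate 1 and 91.1% in replicate 2. The widest domain at Pim1 was 31480 bp (rank 294), from -56.2 to -24.8 kb, and touched no gene record. At Lifr it was 24999 bp (rank 559), from 39.6 to 64.6 kb within the gene, beginning after the first RefSeq start and spanning the second. Junb had 22923 bp (rank 698) across Best2, Get3 and Trir, and Stat3 16560 bp (rank 1516) in Cavin1. Il6st had 12276 bp, Pim3 11864 bp and Jak1 2184 bp (rank 34482). By width, Lifr stood among the targets and Pim3 beside Il6st, so domain width did not part the groups.

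The replicates shared most marked bases at the targets and fewest at Jak1. Of the bases in peaks of either replicate, 89.0% were marked in both at Socs3, 82.5% at Pim1, 78.3% at Junb and 78.1% at Pim3. The share was 70.7% at Lifr, 68.7% at Stat3, 59.5% at Il6st and 47.7% at Jak1, against 67.9% over all peaks. The order was the same as that of the mean locus coverage throughout, and the measures were not separated.

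Peaks near starts of other genes were part of several of these loci. All 15 neighbouring starts had a replicated peak within 2 kb, as did 72.8% of all genes. In the Stat3 locus these were Stat5a and Stat5b, which encode related STAT factors, and Cavin1. In the Pim3 locus the window around the start of Gm33049, 7.75 kb upstream, had 95.0% and 95.3% of its bases in peaks. Around the starts of Rnaseh2a, a subunit gene of ribonuclease H2, and Prdx2, a peroxiredoxin gene, both about 9.13 to 9.15 kb downstream of Junb, the share was 79.9% and 79.3% in replicate 1 and 72.8% and 72.2% in replicate 2. That of Hook2, 10.0 kb upstream, was 78.1% and 72.0%. The lists do not assign peaks to genes. Some of the 15 starts lie close together, such as Rnaseh2a with Prdx2 and Stat5a with Stat5b. Their windows share bases, so the 15 are not separate counts. All lie in loci with coverage above the all-gene median.

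Further genes of the pathway were measured in the same way, from a list of 44 that leaves out the 8 members. Of these, 37 lay above the all-gene median in both replicates, where 48.6% of all genes did, and their median coverage was 33.5%. A replicated promoter peak was present at 42 of 44, where 72.8% of all genes had such a peak, and the exceptions were Cntfr, the ciliary neurotrophic factor receptor gene, and Stat4, named after their values were seen. The highest were Socs7 (60.7% ± 1.35), an adaptor of the SOCS family, Mcl1 (57.9% ± 1.45), a survival gene of the BCL2 family, and Lif itself (56.2% ± 2.19). The lowest were Socs6 (2.66% ± 0.53), the cytokine gene Il6 (3.36% ± 0.25) and Jun (5.34% ± 0.07), the AP-1 partner gene. None of these 44 reached the coverage of Socs3.

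By role, the ligand genes had a median of 45.2%, with 5 of 7 above the all-gene median, although the records of Lif and Osm are 16.5 kb apart and share much of their loci. The other receptor genes had 33.7% (4 of 5), the other STAT genes 20.2% (4 of 6), the other SOCS genes 22.9% (6 of 7), and other targets 34.6% (10 of 11). Other mediators and inhibitors had 18.9% (5 of 5). The other JAK genes, named after their values were seen, were Jak3 (55.8% ± 3.03), Tyk2 (46.6% ± 2.46) and Jak2 (12.9% ± 0.13), and all lay above Jak1. The kinase genes thus spread from below the all-gene median (Jak1) through close to it (Jak2) to well above. The other JAK genes had a median of 46.6%, above the other targets (34.6%). The other targets in turn lay close to the other receptors (33.7%). The contrast among the members was thus not seen among these further genes. Within the SOCS family, coverage ran from 2.66% at Socs6 to 81.3% at Socs3.

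The broad peaks on mm9 gave the same order of the 8 loci as the narrow peaks on mm10. Mean coverage was 92.7% at Socs3, identical in both replicates, 76.6% ± 2.03 at Pim1, 70.1% ± 5.42 at Junb and 63.1% ± 1.37 at Pim3. It was 53.5% ± 6.23 at Lifr, 43.8% ± 0.73 at Stat3, 37.2% ± 5.14 at Il6st and 8.36% ± 1.20 at Jak1, against a median of 20.5% over 22089 genes. Both the lists and the gene records differ between the builds, and the Lifr and Il6st records are shorter on mm9, so only the order is compared.

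Matches to TTCCNGGAA were set against these broad peaks, taking the authors' mm9 list for the series. The 8 loci held 41 matches, 24 of them in peaks (58.5%), where 54.0% of the bases of the loci were in peaks. That is 0.411 matches per 10 kb in peaks and 0.342 outside, against 0.336 and 0.252 over the genome. The looser TTCNNNGAA had 3.02 in peaks and 3.68 outside, against 3.13 and 4.18. The stricter form was thus somewhat denser in the loci than in the genome, in and out of peaks and on few matches, and the looser form somewhat sparser.

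The matches were spread unevenly over the members. In peaks, Socs3 had 7 matches to TTCCNGGAA, Lifr, Il6st and Stat3 had 4 each, Junb 3 and Pim1 2. Jak1 and Pim3 had none in peaks. The bases in peaks ran from 24.6 kb at Jak1 to 98.2 kb at Socs3, and per 10 kb in peaks Il6st (0.738) was slightly above Socs3 (0.713). Outside peaks, Jak1 had 6, of which 5 lay in its introns, Stat3 and Junb had 3 each, Lifr 2, and Il6st, Socs3 and Pim3 1 each. The Socs3 match outside peaks is the 29-base run given above, 123 bp downstream of the RefSeq start and 57 bp upstream of the coding transcript start in GENCODE vM1. It lay in the unmarked gap around the start in both replicates. At Socs3 3 of the matches in peaks lay within Pgs1 introns, in a broad peak of 43600 bp upstream, and the farthest was 42.3 kb from the start. Repeats were not removed, and a match is not evidence of binding.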

How the data were processed

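H3K4me1 ChIP-seq peaks of 2 replicates of 1 group were used as the authors deposited them. The aligner is not given in the sources used here, nor is the caller. Columns of the deposited mm10 narrow lists held signal, −log10 p and −log10 q per peak. Those of the deposited mm9 broad lists held signal, p-value and q-value, with intervals of whole multiples of 200 bp. Per the read-me lists, 1 file besides the alignments went into the replicate 1 mm10 list and 2 such files into the replicate 2 and pooled lists, with their role not stated. Signal ranked peaks within a list only.

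Gene records came from RefSeq (GRCm38.p6). Strand came from its promoter table for 17492 genes and from GENCODE vM1 for 3586, and 809 genes without strand were left out of upstream and start counts. Motifs were searched in all 10 RefSeq promoters of the members (GRCm38.p6) and in the mm9 genome. No coordinate was converted between builds, except that RefSeq starts were placed on mm9 by exact sequence match, each found once.

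Members, lists, settings and motifs were chosen with earlier results of these data known. Named genes were the members, their neighbours, and the 3 highest and 3 lowest further pathway genes. Others (Cntfr, Stat4, Jak2, Jak3, Tyk2, Osm and the genes ranked above Socs3) were named after their values were seen. Alternatives were other extensions, lists, filters, gaps and overlaps, and leaving out each replicate. RefSeq starts and single lists for promoter peaks were added after seeing the data. Interval functions were tested on simulated data. Python 3.11.15, numpy 2.4.6, pandas 2.3.3 and matplotlib 3.10.9 were used.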

Additional observations from a re-analysis of the deposited data

How the results depend on the processing

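The median locus coverage of the 8 members was 42.4%. It was 50.2% with 20 kb and 28.8% with 100 kb on each side, 26.3% with the 50000 strongest peaks, 46.6% with the replicated list, 49.1% with the pooled list and 58.3% with the mm9 broad peaks. Without each replicate it was 40.6% to 44.2%. The difference between targets and receptors with Jak1 (32.7 points) was 27.4 to 38.0 without each replicate. Taken from the means of the replicates, it became -1.48 over the gene records only, the sole reversal among the settings run. There Lifr in place of Socs3 was highest and the replicates disagree. The differences within each replicate over the records had a mean of -0.474. In every other setting run, all 4 targets lay above Lifr, Il6st and Jak1 in coverage, with Socs3 highest and Jak1 lowest. By percentile among genes of like length, Lifr (90.3) lay above Pim3 (89.1). The median share of peaks overlapped in the other replicate was 86.6%. Over all peaks the share was 82.8% in replicate 1 and 79.4% in replicate 2. With 50% of both intervals required, the median over the members was 57.1%. The median widest domain (19741.5 bp) was 5539.5 bp with touching peaks only and 49247.5 bp across gaps of 3 kb. All 8 promoter peaks were present in every setting run. No paired analysis was possible because there is only 1 group. Depth is unknown, so an unmarked stretch may lie below the limit of detection.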
